A study of Mus musculus with 4 samples.

Results

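The genes of glycolysis, the pentose phosphate pathway, the pyruvate dehydrogenase complex and the citrate cycle were examined for nearby p53 and PPAR-alpha binding in mouse thymus. The list was set by name, as 54 RefSeq protein-coding genes of GRCm38 among 21887 on chromosomes 1 to 19, X and Y, and all 54 were found. Chromatin immunoprecipitation followed by sequencing had been done on thymus taken at 4 weeks of age from mice homozygous for the germline p53 AD allele (p53 AD/AD), whose p53 protein is dimeric per the series' design text. All groups carried that genotype, so no wild-type thymus stands beside them. There were 2 libraries for p53, both read at 50 nt, and 1 for PPAR-alpha, read at 75 nt. The input library is not analysed here. The authors deposited 1 list of summits per library, a summit being the base with the most reads in a called peak. Labels do not say whether the p53 libraries came from separate mice, so their spread may be technical, and PPAR-alpha had no replicate.

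Glycolysis turns glucose into pyruvate and ATP, and lactate dehydrogenase converts the pyruvate to lactate in cells that grow fast. The pentose phosphate pathway draws on the same glucose to make NADPH and the ribose of nucleotides, which dividing thymocytes need. Pyruvate dehydrogenase passes pyruvate into the citrate cycle, and its kinases close that gate. p53 is known to restrain glycolysis and to favour mitochondrial oxidation in many cells. PPAR-alpha is a nuclear receptor best known in liver, where it turns on fatty acid oxidation and lowers glucose use.

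In number of summits the p53 lists, with 3608 (replicate 1) and 4767 (replicate 2), stood to either side of the PPAR-alpha list with 4070, and their median deposited scores were 3.99, 3.62 and, for PPAR-alpha, 4.70. Each score is the authors' own value for a peak, taken to be a p- or q-value on the −log10 scale, and was compared within its list only. In lists of counts below, the order is always replicate 1 of p53, its replicate 2, then PPAR-alpha, unless said otherwise. Read numbers are unknown, so a gene without a summit is one where none was called at the depth reached. No RNA was measured. As a check of the tissue, 12, 14 and 12 of 16 thymocyte genes, among them Cd3e, Rag1 and Tcf7, had a summit within 5 kb (75%, 87.5% and 75%). All protein-coding genes gave 12.9%, 16.4% and 12.3%. Gata3 was without one within 5 kb of its ends in any list, though it had 2, 2 and 1 summits farther inside.

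The promoters below were chosen first for holding summits of 2 or 3 lists inside the sequence, and then by the number of lists near the gene and the highest score, so other genes with high or closely paired summits are not shown. They are from RefSeq on GRCm38.p6 and run 5′ to 3′ from 250 bases before the annotated start to 50 bases after it. Pgls, a pentose phosphate gene, lies at chr8:71591934-71592233 on the plus strand and has summits of all 3 lists inside the sequence. Rpia (chr6:70792126-70792425, minus) and Suclg1 (chr6:73248255-73248554, plus) have both p53 replicates inside. Pfkp (chr13:6648722-6649021, minus) has p53 replicate 2 and PPAR-alpha inside. Dlat (chr9:50659731-50660030, minus) has 3 lists near it, with p53 replicate 1 inside and the higher-scoring summits of the other lists outside. Capitals mark matches to the motifs described further on.
Pgls: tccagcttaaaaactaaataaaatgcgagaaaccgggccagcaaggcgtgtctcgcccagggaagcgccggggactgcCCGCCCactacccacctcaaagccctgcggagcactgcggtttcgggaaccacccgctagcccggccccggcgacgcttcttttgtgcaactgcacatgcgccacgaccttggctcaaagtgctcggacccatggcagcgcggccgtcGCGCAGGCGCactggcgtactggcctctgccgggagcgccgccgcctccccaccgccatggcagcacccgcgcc
Rpia: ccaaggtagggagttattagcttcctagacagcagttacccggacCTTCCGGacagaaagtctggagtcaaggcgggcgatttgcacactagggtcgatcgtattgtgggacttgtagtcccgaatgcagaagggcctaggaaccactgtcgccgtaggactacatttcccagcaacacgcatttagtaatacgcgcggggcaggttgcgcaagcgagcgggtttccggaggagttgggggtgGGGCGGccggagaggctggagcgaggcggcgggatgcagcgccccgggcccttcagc
Pfkp: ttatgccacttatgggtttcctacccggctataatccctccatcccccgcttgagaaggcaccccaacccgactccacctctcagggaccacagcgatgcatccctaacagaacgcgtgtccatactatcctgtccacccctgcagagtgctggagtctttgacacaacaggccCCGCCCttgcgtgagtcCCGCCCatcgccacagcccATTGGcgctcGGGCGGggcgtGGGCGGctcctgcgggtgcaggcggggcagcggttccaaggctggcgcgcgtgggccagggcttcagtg
Suclg1: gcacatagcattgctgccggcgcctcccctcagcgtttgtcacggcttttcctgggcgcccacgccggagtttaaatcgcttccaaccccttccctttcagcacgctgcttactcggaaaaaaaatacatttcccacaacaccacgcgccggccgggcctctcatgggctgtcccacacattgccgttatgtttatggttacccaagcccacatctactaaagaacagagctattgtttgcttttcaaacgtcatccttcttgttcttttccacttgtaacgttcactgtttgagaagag
Dlat: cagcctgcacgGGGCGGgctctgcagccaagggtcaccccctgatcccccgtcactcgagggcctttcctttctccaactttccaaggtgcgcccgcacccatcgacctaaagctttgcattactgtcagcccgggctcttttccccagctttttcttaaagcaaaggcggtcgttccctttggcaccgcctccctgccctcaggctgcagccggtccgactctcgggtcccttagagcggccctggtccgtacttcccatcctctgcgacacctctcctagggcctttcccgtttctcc

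Which of these genes lay near a summit? Within 5 kb of either gene end, p53 replicate 1 had a summit at 14 of the 54 genes (25.9%, exact Clopper-Pearson 95% interval 15.0 to 39.7%), where 12.9% of all protein-coding genes had one. p53 replicate 2 had one at 19 (35.2%, 22.7 to 49.4%), against 16.4% of all genes. PPAR-alpha had one at 12 (22.2%, 12.0 to 35.6%), against 12.3%. Each share lay above that of all genes, although the interval for PPAR-alpha includes 12.3%. These intervals cover counting error only. No test was made, since each list stands for 1 library and genes are not replicates.

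Both p53 replicates met at 9 genes, which were Pfkm, Pfkfb3, Aldoa, Eno3, Pgls, Rpia, Dlat, Idh2 and Suclg1 (16.7%, 7.92 to 29.3%, all genes 7.96%). All 3 lists met at 5, namely Pfkm, Eno3, Pgls, Dlat and Idh2 (9.26%, 3.08 to 20.3%, all genes 4.87%). At least 1 list had a summit at 26 genes, against 24.7% of all genes, and 28 genes had none. Within 1 kb the counts were 10, 17 and 8 genes, where all genes gave 9.21%, 11.9% and 8.80%. At that distance 7 genes had both p53 replicates (all genes 5.07%), 3 had all 3 lists (Pfkm, Pgls and Dlat, all genes 2.80%) and 21 had at least 1 (all genes 19.0%). The lists may share a control, which is not given in the sources used here, and whether such sharing adds to their overlap was not tested.

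**Figure D1:**
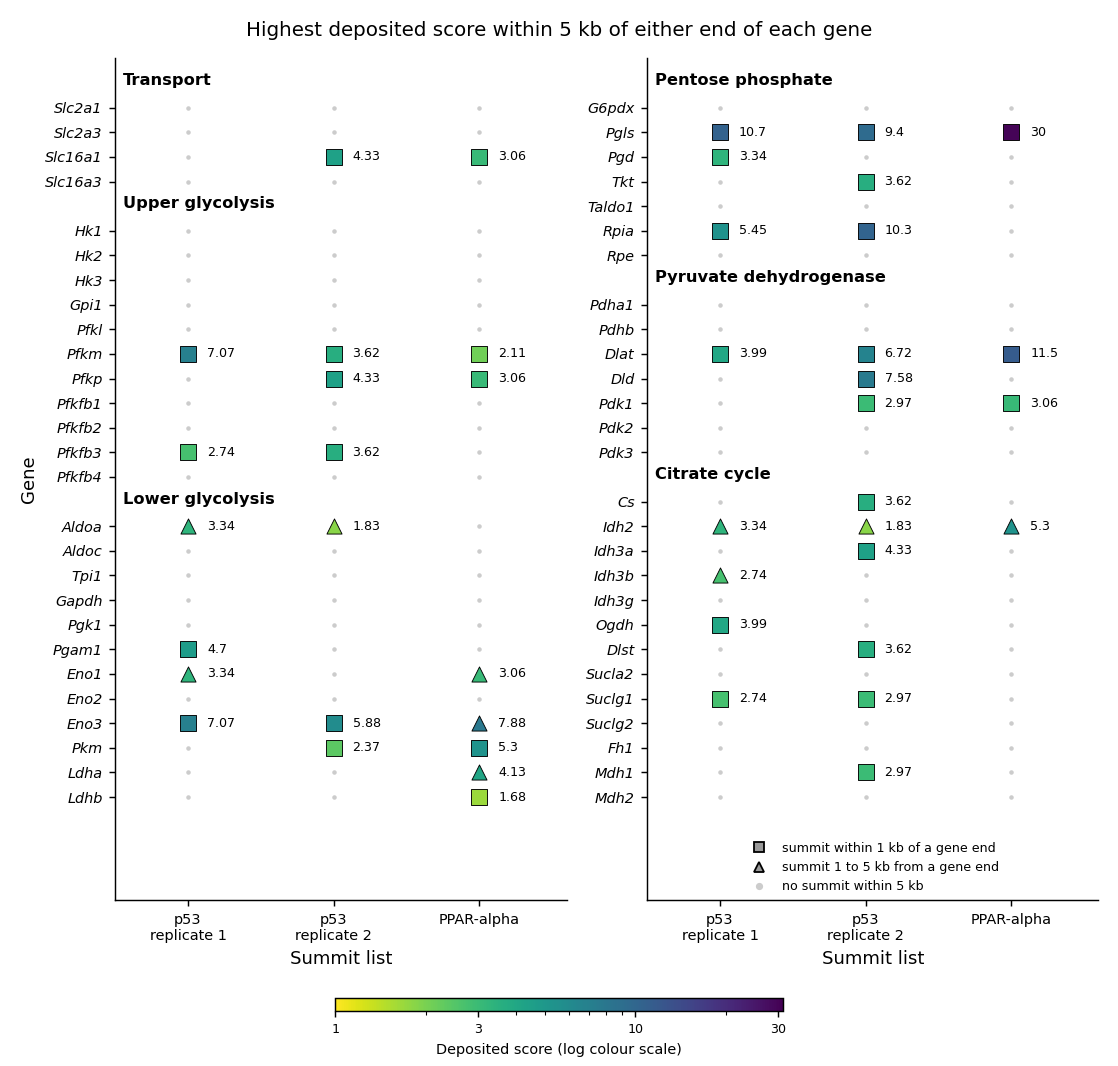
Each of the 54 genes (rows, by pathway step) against the 3 summit lists (columns). Colour on a log scale, with the number beside it, gives the highest deposited score within 5 kb of either gene end. Squares mark a gene with some summit within 1 kb, triangles only at 1 to 5 kb, and grey dots none. The highest value is 30.03 at Pgls in PPAR-alpha, and 28 genes have no mark in any column.

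Chromosome and promoter class were set beside the counts. The X chromosome holds 6 of the 54 genes (Pfkfb1, Pgk1, G6pdx, Pdha1, Pdk3 and Idh3g), none of them near a summit. Of all 966 protein-coding genes on X, 0.414%, 0.621% and 0.932% had a summit within 5 kb, against 13.7%, 17.3% and 13.0% on autosomes. An empty result at an X-linked gene therefore says little about that gene. On autosomes the counts of 14, 19 and 12 stood for 29.2%, 39.6% and 25% of 48 genes.

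For promoter class, a promoter was called CpG-rich when its GC content was at least 50% and its ratio of observed to expected CpG at least 0.6. Of the 52 genes with a RefSeq promoter in the table used, 39 were CpG-rich (75%), against 45.8% of 17492 protein-coding genes. Among genes with a CpG-rich promoter, summits lay near 23.1%, 33.3% and 20.5% of the 39. All genes of that class gave 21.6%, 27.5% and 20.6%, which is close to the listed genes in p53 replicate 1 and PPAR-alpha and lower in p53 replicate 2. Among genes without one, summits lay near 5, 5 and 4 of 13 listed genes (38.5%, 38.5% and 30.8%), where all genes of the class gave 6.41%, 7.79% and 6.10%. A summit of at least 1 list lay near 48.7% of the listed genes with a CpG-rich promoter and 46.2% of those without, against 40.9% and 12.2% of all genes, so the class went with the counts over all genes and not among the listed ones. The 13 without a CpG-rich promoter include Pfkm, Eno3, Aldoa and Idh2, where the end of another gene lay nearer to some or all of the summits, as described below. The split by promoter class was chosen after the counts were seen, and the part of CpG content in them was not tested.

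**Figure D2:**
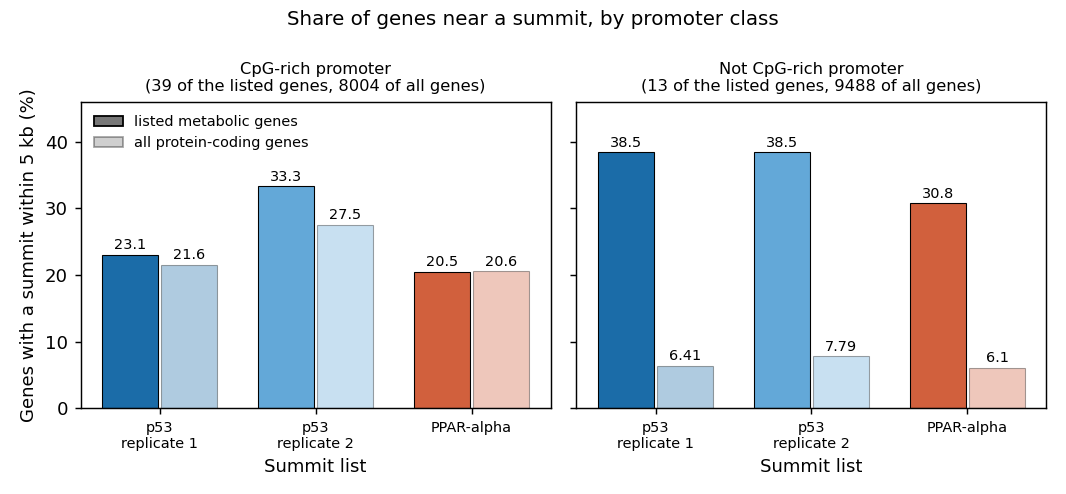
Percent of genes with a summit within 5 kb (vertical axis) in each list, for genes with a CpG-rich promoter (left) and without one (right). Full colour is the listed metabolic genes and pale colour all protein-coding genes. On the left the bars stand closest in PPAR-alpha (20.5% and 20.6%) and farthest apart in p53 replicate 2 (33.3% and 27.5%). On the right the listed genes stand higher, at 38.5% against 6.41% in p53 replicate 1. That panel holds 13 listed genes, some of which missed the CpG-rich cut narrowly.

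By pathway step, the citrate cycle had p53 replicate 2 at 6 of 13 genes, p53 replicate 1 at 4 and PPAR-alpha at 1. Lower glycolysis, from aldolase to lactate, had PPAR-alpha at 5 of 12 genes, p53 replicate 1 at 4 and p53 replicate 2 at 3. The pentose phosphate pathway had each p53 replicate at 3 of 7 genes and PPAR-alpha at 1. Upper glycolysis had 2, 3 and 2 of 11 genes, and the pyruvate dehydrogenase group had 1, 3 and 2 of 7. Transport had p53 replicate 2 and PPAR-alpha at 1 gene of 4. All protein-coding genes gave 12.9%, 16.4% and 12.3%. Within 1 kb lower glycolysis had 2, 2 and 2 genes and the citrate cycle 2, 5 and 0, where all genes gave 9.21%, 11.9% and 8.80%. The other steps kept their counts. Some counts rest on summits nearer the end of another gene, as described below. With 4 to 13 genes a step, these counts are descriptions, and no difference between steps was tested.

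**Figure D3:**
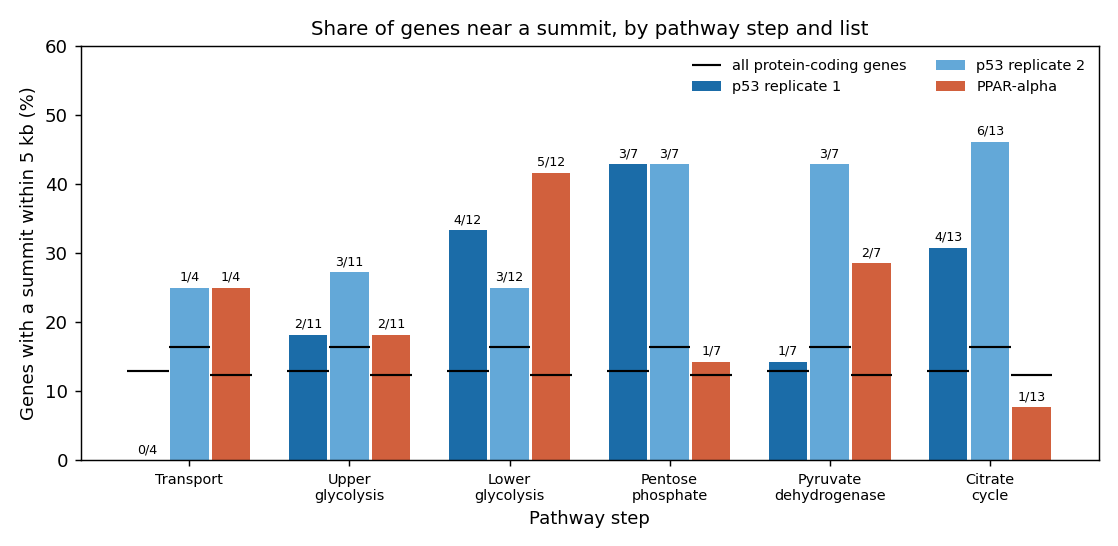
Percent of genes with a summit within 5 kb (vertical axis) for each pathway step and list, with the count of genes above each bar. Black lines give the percent of all protein-coding genes in that list. The citrate cycle runs from 6 of 13 genes in p53 replicate 2 to 1 of 13 in PPAR-alpha.

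Among the transporters, only the monocarboxylate carrier gene Slc16a1 (MCT1, which carries lactate and pyruvate) had a summit within 5 kb. p53 replicate 2 had summits 417 bp before and 1003 bp after its 5′ end on chromosome 3, scoring 4.33 and 1.34. PPAR-alpha had one 729 bp after it, scoring 3.06, and p53 replicate 1 had none nearer than 72848 bp. The lactate exporter gene Slc16a3 and the glucose importer genes Slc2a1 and Slc2a3 had none in any list. For Slc2a1 the nearest summit was 36641 bp away in PPAR-alpha, and for Slc2a3 8202 bp away, also in PPAR-alpha.

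In upper glycolysis the phosphofructokinase genes, which encode the committing step, differed by isoform. Pfkm, the muscle form, had p53 replicate 1 at 396 bp, PPAR-alpha at 484 bp and p53 replicate 2 at 745 bp after its 5′ end on chromosome 15. The scores were 7.07, 2.11 and 3.62. The neighbouring gene Senp1, for a SUMO protease, has its 5′ end 235 to 584 bp from the same summits, and the nearest RefSeq start to each of them is one of Senp1. Pfkp, the platelet form, had p53 replicate 2 (4.33) at 43 bp and PPAR-alpha (3.06) at 132 bp after the 5′ end, 89 bp apart, and none in p53 replicate 1 within 717645 bp. Pfkl, the liver form, had no summit nearer than 288636 bp in any list.

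Of the 4 genes for the enzyme that makes and removes the phosphofructokinase activator, Pfkfb3, the widely inducible form, was alone in having summits. p53 replicate 1 had one at 723 bp (2.74) and p53 replicate 2 had 2, at 425 bp (3.62) and 984 bp (2.97), after the 5′ end on chromosome 2. PPAR-alpha had none nearer than 31895 bp of either end. Farther inside the gene a second annotated start, 51981 bp from the 5′ end, had summits of p53 replicate 1 (3.34) at -27 bp and p53 replicate 2 (2.37) at 374 bp, counted downstream. PPAR-alpha had a summit at -1235 bp from that start, scoring 4.13. Pfkfb1, Pfkfb2 and Pfkfb4 had none within 5 kb, Pfkfb1 being on X.

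The hexokinase genes, for the enzyme that traps glucose in the cell, had no summit within 5 kb of their ends. For Hk2, the form tied to growth and muscle, the nearest was 138963 bp away. Hk3, a form of myeloid cells, had none nearer than 83892 bp. At Hk1, the form of most tissues, p53 replicate 2 (2.97) and PPAR-alpha (3.06) had summits 938 and 243 bp after an annotated start that lies 39499 bp inside the gene. The counts of gene ends above leave these out. Gpi1, for the isomerase that follows, had none nearer than 32340 bp.

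In lower glycolysis Eno3, the muscle enolase gene, had the most summits. Each list had 2, at 883 and 2415 bp (2.74 and 7.07) in p53 replicate 1, 934 and 2403 bp (2.37 and 5.88) in p53 replicate 2, and 1375 and 2295 bp (7.88 and 5.30) in PPAR-alpha, all counted from the 5′ gene end on chromosome 11. The p53 replicates lay 51 and 12 bp apart. The RefSeq start nearest to all 6 summits, at 150 to 890 bp, belongs to Pfn1, which encodes the actin-binding protein profilin, and Eno3's own start in the promoter table lies 1636 to 3168 bp from them. Eno1, the enolase gene of most tissues, had p53 replicate 1 (3.34) at 1337 bp and PPAR-alpha (3.06) at 1392 bp, 55 bp apart. The neuronal gene Eno2 had none nearer than 19007 bp.

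Pkm, for the pyruvate kinase of proliferating cells and muscle, had a summit of p53 replicate 2 (2.37) at 103 bp and one of PPAR-alpha (5.30) at 102 bp after its 5′ end on chromosome 9. These neighbouring bases were the closest pair between factors among the listed genes. p53 replicate 1 had none nearer than 39311 bp. Both lactate dehydrogenase genes had a summit in PPAR-alpha alone, Ldha (4.13) at 4139 bp from its outermost 5′ end and 609 bp from its nearest annotated start, and Ldhb (1.68) at 406 bp. The score of Ldhb was the lowest on that list, shared by 0.958% of its summits.

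Pgam1, for the phosphoglycerate mutase, had p53 replicate 1 alone (4.70) at 310 bp. Aldoa, the aldolase gene of most tissues, counted through summits of p53 replicates 1 and 2 (3.34 and 1.83) at 3117 and 3420 bp beyond its 3′ end. They lay 440 and 743 bp from the 5′ end of Ppp4c, a phosphatase gene. No summit lay within 5 kb of Tpi1 (nearest 15538 bp), Gapdh (30211 bp), the brain aldolase gene Aldoc (144147 bp) or Pgk1 on X. Tpi1, Gapdh and Pgk1, which carry triose phosphates to phosphoglycerate, thus lacked a summit within 5 kb in every list.

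The pentose phosphate pathway held the highest score of the 54 genes. Pgls encodes the lactonase that follows the first, NADPH-making step. Its summits lay 38 bp (p53 replicate 1, 10.7), 113 bp (p53 replicate 2, 9.40) and 161 bp (PPAR-alpha, 30.03) before the 5′ end on chromosome 8, at positions 71592146, 71592071 and 71592023. These scores were at or above those of 95.6%, 95.7% and 96.9% of the summits in their lists. In the sequence printed above they fall on bases 213, 138 and 90. A second summit of p53 replicate 2 lay 567 bp before the end (2.37). Other gene ends within 5 kb were the 3′ end of Slc27a1, for a fatty acid transporter, at 4310 to 4839 bp, and the 5′ end of Niban3 at 4210 to 4739 bp.

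Rpia, for the isomerase that yields ribose phosphate, had both p53 replicates and no PPAR-alpha summit within 21223 bp. p53 replicate 1 lay 5 bp after the 5′ end (5.45) and p53 replicate 2 33 bp before it (10.3), on chromosome 6, which are bases 256 and 218 of the printed promoter. The latter score was at or above that of 96.4% of its list. Pgd, for the second NADPH-making dehydrogenase, had p53 replicate 1 alone (3.34) 379 bp before its 5′ end. Tkt, for transketolase, had p53 replicate 2 alone (3.62) at 319 bp. The entry enzyme gene G6pdx lies on X and had none nearer than 165911 bp, and Taldo1 and Rpe had none nearer than 40810 and 96398 bp.

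Of the pyruvate dehydrogenase complex, the genes for its acetyltransferase core and its shared dehydrogenase had summits at their starts. Dlat, the core gene, had p53 replicate 1 (3.99) at 11 bp, p53 replicate 2 (6.72) at 189 bp and PPAR-alpha (11.5) at 214 bp after its 5′ end on chromosome 9. p53 replicate 2 and PPAR-alpha lay 25 bp apart and p53 replicate 1 178 bp from the former. Dld, the dehydrogenase gene shared with the oxoglutarate complex, had p53 replicate 2 alone (7.58) at 12 bp, with p53 replicate 1 no nearer than 147982 bp. Pdhb had none nearer than 85471 bp, and Pdha1 on X had none.

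Among the kinases that switch the complex off, Pdk1, known as a target of hypoxia signalling, had p53 replicate 2 (2.97) at 329 bp and PPAR-alpha (3.06) at 471 bp after its 5′ end. p53 replicate 1 had none nearer than 242215 bp. Pdk2 had none nearer than 19104 bp and Pdk3, on X, none nearer than 380732 bp.

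In the citrate cycle p53 gave most of the summits, and none of any list scored above 5.30. Suclg1, for the alpha subunit common to both succinyl-CoA ligases, had p53 replicate 1 (2.74) at 17 bp and p53 replicate 2 (2.97) at 28 bp after its 5′ end, 11 bp apart, on bases 268 and 279 of its printed promoter. PPAR-alpha had none nearer than 254999 bp. The partner genes Sucla2 and Suclg2 had none in any list (nearest 27806 and 772579 bp). p53 replicate 2 alone marked Cs, for citrate synthase, at 374 bp (3.62), Dlst, for the core of the oxoglutarate complex, at 212 bp (3.62), and the cytosolic malate dehydrogenase gene Mdh1 at 295 bp (2.97). The Dlst summit lay nearer, at 149 bp, to the 5′ end of Prox2, and the Mdh1 summit lay 330 bp from that of Wdpcp.

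Idh2, for the NADP-dependent mitochondrial isocitrate dehydrogenase, was the citrate cycle gene with all 3 lists. It owed p53 replicate 1 to a group of summits away from its start. These, scoring 3.34, 1.83 and 5.30, lay 3322, 3467 and 3236 bp beyond its 3′ end and nearer to the 3′ end of Zfp710. At its annotated start p53 replicate 2 (1.83) and PPAR-alpha (3.58) had summits 493 and 319 bp away. Of the NAD-dependent enzyme, Idh3a had p53 replicate 2 (4.33) 67 bp from its lower-coordinate end. Idh3b counted by a single summit of p53 replicate 1 (2.74) 4773 bp beyond its 3′ end and 169 bp from the 5′ end of Nop56. p53 replicate 2 and PPAR-alpha had summits at that site too, 5200 and 5212 bp from Idh3b and so just outside the window. Idh3g is on X and had none.

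Ogdh, for the first enzyme of the oxoglutarate complex, had p53 replicate 1 alone (3.99) at 773 bp from the 5′ gene end and 188 bp from its nearest annotated start. A RefSeq start of Gm46270 lay nearer to that summit, at 107 bp. Fh1, for fumarase, had no summit nearer than 1187925 bp, and Mdh2, the mitochondrial malate dehydrogenase gene, none nearer than 144265 bp.

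Compared by isoform, 12 enzyme groups had more than 1 listed gene. In 2 of them, glucose transporters and hexokinases, no gene end had a summit. In lactate dehydrogenase both genes had one. In the other groups some isoforms had summits and some had none, as with Pfkm and Pfkp beside Pfkl, Eno1 and Eno3 beside Eno2, Mdh1 beside Mdh2, and Slc16a1 beside Slc16a3. The muscle forms Pfkm and Eno3 had summits in all 3 lists, and at both loci a start of another gene was the nearest. Tissue isoforms were not compared by a test, because each group holds 2 to 4 genes.

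Where did the summits lie? The 26 genes had 53 summits, counting each list separately. Of these, 46 were nearer the 5′ gene end, 6 nearer the 3′ end and 1, at Idh3a, had no strand in the table used. Nearer the 5′ end were 80%, 91.3% and 92.9%, where all summits within 5 kb of a protein-coding gene gave 89.3%, 89.3% and 86.5%. These shares are unlike measures. Summits of the listed genes were set against ends of those genes only, and the others against the nearest end of any gene with a strand. The summits beyond the 3′ ends of Aldoa and Idh3b thus counted as 3′, though they lay close to 5′ ends of Ppp4c and Nop56. The median summit at a 5′ end lay 351.5 bp downstream of it, and 39 of the 46 were downstream. These offsets are from the outermost gene end and not from an annotated start. All summits of Eno3 and Pfkp counted as downstream lie before the RefSeq start of their gene. For 11 summits of 6 genes (Pfkm, Aldoa, Eno3, Idh2, Idh3b and Dlst) another protein-coding gene had the nearer end, and at Aldoa, Idh3b and Dlst this was so of every summit.

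**Figure D4:**
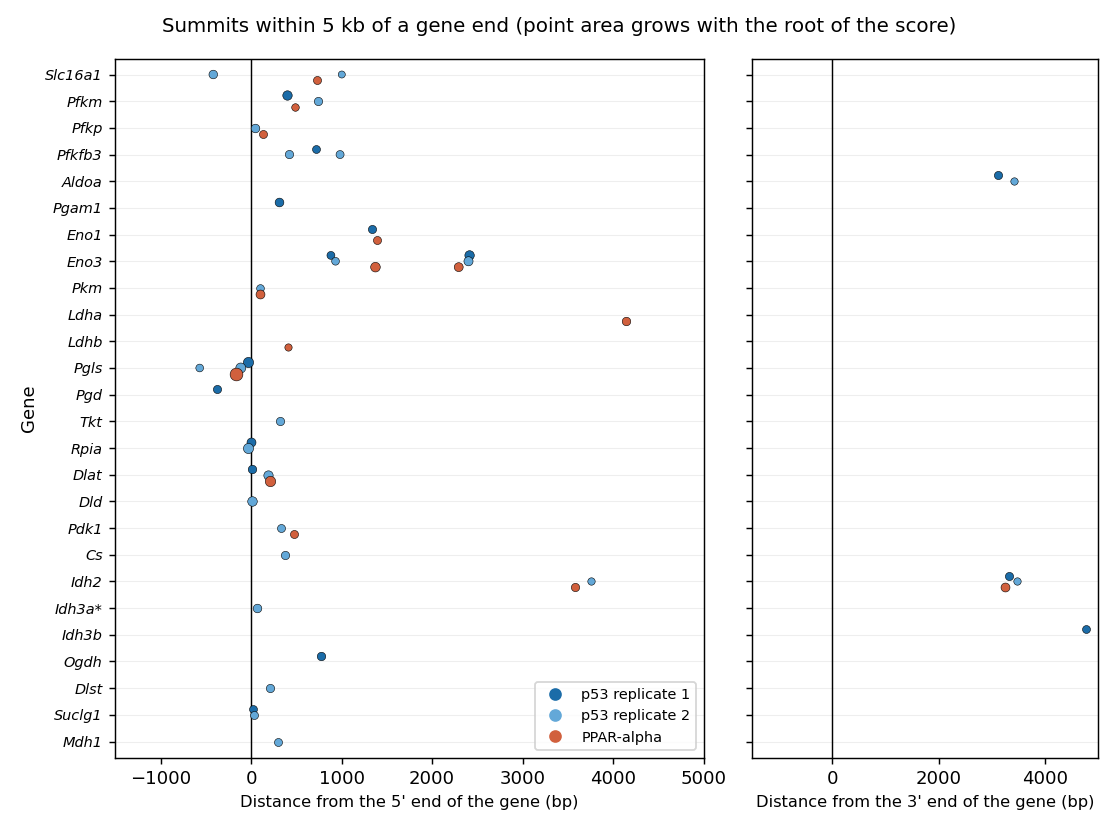
Distance in bp of each summit from the nearer gene end, downstream positive, for the 26 genes with a summit within 5 kb (rows), at the 5′ end (left) and the 3′ end (right). Point colour is the list, point area grows with the root of the deposited score, and the distance of Idh3a (asterisk) is from its lower-coordinate end. Most points on the left lie between 0 and 1000 bp, and the right panel holds Aldoa, Idh2 and Idh3b alone.

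Annotated starts were also used in place of gene ends, a choice made after the counts were seen. Within 1 kb of a RefSeq start of its own lay a summit at 10 genes in p53 replicate 1, 17 in p53 replicate 2 and 12 in PPAR-alpha, of 52 with a promoter in the table. All genes in the table gave 10.2%, 13.0% and 9.59%, and the listed genes 19.2%, 32.7% and 23.1%. Both p53 replicates met at 6 (Pfkm, Pfkfb3, Pgls, Rpia, Dlat and Suclg1, all genes 5.72%) and all 3 lists at Pfkm, Pgls and Dlat (all genes 3.21%).

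How far did the lists mark the same base? Within 100 bp of a p53 replicate 2 summit lay 5 of the 15 p53 replicate 1 summits near these genes (33.3%), at Eno3, Pgls, Rpia and Suclg1, where all summits within 5 kb of a gene gave 21.7%. Seen from replicate 2 the shared ones were 5 of 24 (20.8%, all genes 16.6%). PPAR-alpha came that close to 3 of 15 in replicate 1 (20%, all genes 16.4%) and of 4 of 24 in replicate 2 (16.7%, all genes 14.3%). Of the 14 PPAR-alpha summits, 3 (21.4%) met replicate 1 and 4 (28.6%) met replicate 2. Over all genes these last shares were 16.4% and 18.7%. At 500 bp the p53 replicates shared 73.3% of the summits of replicate 1 and 45.8% of those of replicate 2, where all genes gave 45.0% and 34.9%. PPAR-alpha came within 500 bp of 53.3% of replicate 1 and 50% of replicate 2, where all genes gave 36.9% and 33.4%. Of its own summits, 50% met replicate 1 and 78.6% met replicate 2, against 37.0% and 42.9%. A summit shared within 100 bp is also shared within 500 bp, so the wider distance can only give equal or larger shares. At 500 bp the shared summits include those beyond the 3′ ends of Aldoa and Idh2.

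Scores near these genes were like those near all genes. The median was 3.34, 3.62 and 3.85, and 3.99, 3.62 and 4.70 over all summits within 5 kb of a gene. A score of 10 or more was reached by 4 of the 53 summits, which were Pgls in p53 replicate 1 and PPAR-alpha, Rpia in p53 replicate 2 and Dlat in PPAR-alpha. By list that is 6.67%, 4.17% and 14.3%, near the 4.38%, 3.81% and 13.6% of all summits within 5 kb of a gene. None lay in a dense run, meaning 5 or more summits of a list within 50 kb to either side. With a score of 5 or more required, the counts were 4, 5 and 5 genes, or 7.41%, 9.26% and 9.26%, beside 4.19%, 5.31% and 6.07% of all genes.

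The promoter sequences of the 52 genes were searched on both strands for motifs spelled by their letters. The GC box GGGCGG stood in 67.3% of them and in 46.3% of all promoters, the CCAAT box CCAAT in 46.2% and 39.2%, and the ETS motif CCGGAAG in 11.5% and 11.9%. The hypoxia element core ACGTG, which the E-box CACGTG contains, stood in 36.5% and 20.7%, and the E-box itself in 7.69% and 7.91%. The cAMP response element TGACGTCA was held by 3 genes (Ldha, Mdh2 and Ogdh), or 5.77%, against 2.33%. Of the 25 genes with a summit within 5 kb and the 27 without, the GC box stood in 17 and 18, the CCAAT box in 12 and 12, the ETS motif in 3 and 3 and the nuclear receptor element AGGTCA in 3 and 4. The hypoxia core stood in 7 and 12, the E-box in 3 and 1 and the cAMP response element in 2 and 1. No difference between these groups was tested.

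Motifs of the immunoprecipitated factors were searched in the same promoter sequences. Most summits near the listed genes lay outside these sequences, as at Pfkm, Pkm and Cs. The search therefore cannot show whether the motifs lie at the summits. A single p53 decamer, by its consensus, stood in 2 promoters, those of G6pdx and Pgam1 (3.85%, all promoters 7.32%). The nuclear receptor element AGGTCA stood in 7 (13.5%, all promoters 14.5%), and its direct repeat with 1 base between, the form that PPAR-alpha binds with its partner RXR, stood in none, as in all but 9 of 17492 promoters. A palindrome of GCGC, any 2 bases and GCGC, as bound by the respiratory gene regulator NRF1, was added after the sequences were seen. It stood in 6 promoters (Dld, Eno1, Pgam1, Pgls, Slc16a1 and Sucla2), or 11.5%, against 8.87% of all. Of those 6 genes, 5 had a summit within 5 kb, where 25 of the 52 genes searched and 24.7% of all protein-coding genes had one. Because the palindrome was added after seeing promoters printed for their summits, that count cannot show a link. In the printed promoters, Pgls has a GC box at bases 79 to 84 and the palindrome at 227 to 236. Pfkp has 4 GC boxes and a CCAAT box on the opposite strand. Rpia has an ETS motif and a GC box, Dlat a GC box, and Suclg1 none of these. These matches describe the printed windows and not binding sites.

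Other genes of the same pathways, together with 6 regulators of glycolysis, were counted for comparison, 58 in all and chosen by name. Summits within 5 kb lay near 9, 7 and 5 of them (15.5%, 12.1% and 8.62%), beside 12.9%, 16.4% and 12.3% of all genes. At least 1 list marked 20.7% of the 58 against 24.7% of all genes, a pooled share near the background, and 46 had none. By group that was 4 of 6 regulators, 4 of 12 citrate cycle genes and 2 of 20 in glycolysis and gluconeogenesis. It was 1 of 7 in pentose phosphate, 1 of 8 in pyruvate entry and 0 of 5 in transport. Some summits lay nearer another gene, as at Gapdhs (13 bp from the 5′ end of Tmem147) and Acly (62 bp from that of Klhl11). Txnip, for an inhibitor of glucose uptake, was alone in having all 3 lists, with 3.34 in p53 replicate 1, up to 5.88 in p53 replicate 2 and up to 13.8 in PPAR-alpha. Both p53 replicates also marked Pdp1, for the phosphatase that reopens pyruvate dehydrogenase (7.93 and 5.08), the succinate dehydrogenase gene Sdha (6.24 and 1.34) and the malic enzyme gene Me2 (3.34 and 3.62), none of them with PPAR-alpha. These 3 were picked after their values were seen. The Sdha summit of p53 replicate 1 lay 78 bp outside that gene and 1 bp from the 5′ end of Ccdc127. That end was also within 1 kb of the Sdha summit of p53 replicate 2. Tigar, known in human cells as a p53 target that diverts glucose to the pentose phosphate pathway, had no summit nearer than 145217 bp, and the PPAR-alpha target Pdk4 had none nearer than 60643 bp.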

How the data were processed

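Each ChIP library came with its own list of summits; the input was not analysed here. The submitters' processing notes list MACS2 2.1.2, Bowtie2 2.3.4.2 and Picard 2.9.0, giving no roles or settings. Neither threshold nor control is given in the sources used here. The deposited score was taken, from its range, to be a p- or q-value on the −log10 scale. Depth is unknown.

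Because those notes give GRCh38, which is human, as the build, positions were checked against RefSeq GRCm38.p6 gene ends. Within 1 kb of one lay 49.2%, 49.0% and 42.0% of the summits, and 6.38 to 7.82% after moving them by 50 kb. Positions are counted from 1. Gene ends came from the RefSeq gene table, and strands, starts and sequences from its promoter table (52 of 54 genes, not Slc2a3 and Idh3a). Per gene, motifs used the promoter nearest the 5′ end.

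A gene was near a summit when either end lay within 5 kb or 1 kb. Shares are given beside those of all 21887 protein-coding genes. Counting steps were checked on made-up positions with known answers, using Python 3.11.15, pandas 2.3.3 and SciPy 1.17.1. The genes and lists were chosen with earlier results of these data known. All 54 genes are accounted for. Values are given for those near a summit, and those without are named, most with the distance to the nearest one. Other genes with all 3 lists are named, and promoters were printed by number of lists inside.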

Additional observations from a re-analysis of the deposited data

How the results depend on the processing

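Counts depended most on the score required. At a score of 5 or more, 4, 5 and 5 genes remained near a summit of p53 replicate 1, p53 replicate 2 and PPAR-alpha, 3 near both p53 replicates and 2 near all 3 lists, where all genes gave 4.19%, 5.31%, 6.07%, 1.97% and 1.16%. At 10 or more these counts were 1, 1, 2, 0 and 0 (all genes 0.726%, 0.80%, 2.03%, 0.329% and 0.219%). The 5 genes with all 3 lists became 3 within 1 kb, 3 with the nearest gene end only and 3 within 1 kb of their own annotated start, the last chosen after seeing the data. Without p53 replicate 1, 19 genes stood in place of the 9 with both and 9 in place of the 5 with all 3 lists. Without p53 replicate 2 these were 14 and 6. All genes gave 16.4% and 7.41%, then 12.9% and 6.42%. Of the p53 replicate 1 summits, 33.3% met replicate 2 within 100 bp, 73.3% within 500 bp and 75% (3 of 4) at a score of 5 or more. p53 summits that met PPAR-alpha went from 17.9% to 51.3% at 500 bp. At 50 bp these shares were 20% and 7.69%. A window of 20 kb gave 16, 25, 16, 13 and 7 genes in the order above (all genes 20%, 24.9%, 19.4%, 13.8% and 9.30%), adding summits inside genes 14, 20, 14, 9 and 6 (all genes 14.6%, 18.3%, 14.3%, 9.27% and 6.05%), and removing dense runs changed none of these 5 counts. No paired analysis was possible because no result comes from a test. Unknown depth limits what an absent summit can show, and with 1 PPAR-alpha library and 2 p53 libraries differences between factors were not tested. Antibody and read length changed together and cannot be told apart.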
